A study of Homo sapiens with 15 samples.

Results

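The genes described here are 37 genes of DNA replication and S phase, taken as the rows of the deposited expression table whose gene symbol is on a named list. Each of the 37 symbols was found once among the 60605 genes of the table, and all 37 passed the filter that left 21206 genes for testing, which asked for 1 or more FPKM in any library. FPKM is the number of reads counted for a gene scaled to exon length and to the library's total count. The data are 15 bulk RNA sequencing libraries of wild-type H1 cells, a human embryonic stem cell line, taken while a monolayer differentiated toward the heart. All cells received CHIR-99021, an activator of WNT signaling, on day 0 and insulin on day 1, and the libraries of days 0, 1 and 2 were shared by all conditions. From day 2, NP-ctrl cells (not passaged) were left in their wells to differentiate spontaneously. NP-IWP2 cells also stayed in their wells, with IWP2, which blocks WNT secretion, from day 2 to day 4. Passaged cells were dissociated with EDTA on day 2 and replated on fresh matrix without IWP2. The paper describes this arm as split over more wells, so its cells were also at a lower density. The paper also reports a ROCK inhibitor in the differentiation experiments that follow its survival tests. The part of density and inhibitor in the differences between arms was not tested. Each of these 3 arms had 1 library on each of days 3, 5, 7 and 10. All libraries came from 1 cell line and no library had a replicate, so intervals on ratios between libraries cover counting error only. The edgeR p-values of slopes rest on the spread of the days around a fitted line. Those of mean levels rest on what remains after arm and day as factors, including any change of an arm difference over days. Either spread may be technical.

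Before a cell copies its DNA, the origin recognition complex recruits CDC6 and CDT1 to replication origins, and these load the ring-shaped MCM2-7 helicase in an inactive form. At the start of S phase MCM10, CDC45 and the GINS complex turn the loaded ring into an active helicase, primase and polymerase alpha lay down primers, and polymerases delta and epsilon extend them on the sliding clamp PCNA. FEN1 and LIG1 join the fragments of the lagging strand, while ribonucleotide reductase, thymidylate synthase and thymidine kinase supply deoxynucleotides. Many of these genes are targets of E2F transcription factors, which are released at the passage from G1 into S phase, where cyclin E acts with CDK2. Pluripotent stem cells are known for a short G1 phase and a large share of cells in S phase, and cardiomyocytes leave the cell cycle as they mature. The genes were grouped by these roles into 8 groups.

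The sequences upstream of 4 of them are shown to let a reader see which short promoter motifs they hold. They are, among the genes with an entry, the gene of the MCM2-7 helicase, of the polymerases and of nucleotide supply with the lowest adjusted p for its slope in passaged cells, and the gene with the highest such p of all. MCM5 and POLD3, which would otherwise have been shown for the helicase and for the highest p, had no entry. The sequences are the 250 bases before the annotated start in RefSeq (GRCh38.p14), read 5′ to 3′ on the strand of the gene. Capitals mark matches on either strand to the E2F motifs TTTCCCGC, TTTCGCGC, TTTGCCGC or TTTGGCGC, to CCAAT, and to the motifs TTTGAA or TTCGAA of the cell cycle homology region.
MCM7, chr7:100101398-100101647 (- strand): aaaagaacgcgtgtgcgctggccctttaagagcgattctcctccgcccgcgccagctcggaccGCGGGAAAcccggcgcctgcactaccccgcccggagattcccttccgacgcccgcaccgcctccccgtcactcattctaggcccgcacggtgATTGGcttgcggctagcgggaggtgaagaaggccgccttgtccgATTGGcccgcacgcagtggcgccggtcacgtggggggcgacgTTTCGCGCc
POLE, chr12:132687343-132687592 (- strand): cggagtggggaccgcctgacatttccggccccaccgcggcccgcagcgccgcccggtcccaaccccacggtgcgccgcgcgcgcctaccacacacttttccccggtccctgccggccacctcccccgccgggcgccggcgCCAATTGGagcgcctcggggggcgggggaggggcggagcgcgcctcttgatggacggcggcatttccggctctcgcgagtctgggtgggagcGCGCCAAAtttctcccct
TK1, chr17:78187205-78187454 (- strand): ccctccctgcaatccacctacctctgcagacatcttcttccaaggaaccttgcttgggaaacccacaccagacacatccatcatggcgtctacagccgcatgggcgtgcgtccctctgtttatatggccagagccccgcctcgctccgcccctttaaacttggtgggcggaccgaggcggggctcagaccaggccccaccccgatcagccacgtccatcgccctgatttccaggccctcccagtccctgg
CCNE1, chr19:29811741-29811990 (+ strand): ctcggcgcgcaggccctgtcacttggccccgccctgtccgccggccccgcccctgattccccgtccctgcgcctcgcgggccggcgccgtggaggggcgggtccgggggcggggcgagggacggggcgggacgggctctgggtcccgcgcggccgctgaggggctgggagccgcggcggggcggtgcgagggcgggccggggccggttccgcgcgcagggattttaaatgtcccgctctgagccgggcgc
The MCM7 window, upstream of a subunit of the helicase ring, held 2 matches to an E2F motif and 2 to CCAAT. The POLE window, upstream of the catalytic subunit of polymerase epsilon, held 1 match to an E2F motif and 2 overlapping matches to CCAAT in opposite directions. No match lay in the printed windows of TK1 (thymidine kinase) and CCNE1 (cyclin E1). For genes with more than 1 window, that nearest the annotated start of the gene is printed. TK1 had 2 windows, and the one not printed held CCAAT. RefSeq windows were at hand for 32 of the 37 genes (not for MCM4, MCM5, GINS4, POLD3 and CCNE2), and 12 of these 32, or 37.5%, held an E2F motif in at least 1 of their windows, beside 928 of all 27305 genes with a window, or 3.4%. CCAAT was found for 18 of 32 genes (56.25%) beside 37% of all genes, and TTTGAA or TTCGAA for 2 of 32 (6.25%) beside 17.23% of all. E2F matches were found in 3 of 4 genes of the MCM2-7 group, 3 of 7 of the polymerases and primase, 2 of 5 of the clamp and clamp loader, 1 of 4 of the licensing genes, 1 of 5 of the helicase activation genes, 1 of 2 of the flap removal and ligation genes and 1 of 4 of the nucleotide supply genes. These are matches of letters in a short window, not binding sites.

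Library totals ranged from 13254723 to 20250115 counts with a median of 15269132. Counts of the 37 genes ranged from 31 to 9551 over all libraries, so none was near the limit of 3 counts that a count of 0 allows. The share of counts on mitochondrial genes was 1.53% in the passaged library of day 3, 10.3% in that of day 10 and 3.71% to 6.14% in the other 13 libraries. Labels were checked with markers. The 4 pluripotency markers summed to an FPKM of 1330.0 on day 0, and the 8 cardiomyocyte markers to 0.88 on day 0 and 3687 in passaged, 1485 in NP-IWP2 and 483.0 in NP-ctrl cells on day 10. Genes that overlap on the chromosome could share reads with 17 of the 37 genes, so their levels are less certain. Among them were MCM7 with the microRNA genes inside it, FEN1 with FADS2, RFC4 with EIF4A2, PRIM1 with NACA and TYMS with ENOSF1. Near-identical genes elsewhere could also share reads and were not searched for. Strand use in counting was not given in the sources used here.

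The replication genes were high in stem cells, lower on day 2, high again in passaged cells on day 3, and lowest in passaged cells on day 10. Of the 37 genes, 14 had their highest FPKM on day 0, 6 on day 1, 1 on day 2, 15 in passaged cells on day 3 and 1 (ORC6) in NP-IWP2 cells on day 3. In 34 of 37 genes the lowest of all 15 values was that of passaged cells on day 10. As a median over the 37 genes, FPKM on day 3 was 101% of day 0 in passaged cells, 54.3% in NP-ctrl and 53.0% under IWP2, while on day 10 it was 16.4%, 25.8% and 26.0%. In such bulk samples, fewer cycling cells and less of a transcript per cell cannot be told apart.

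**Figure D1:**
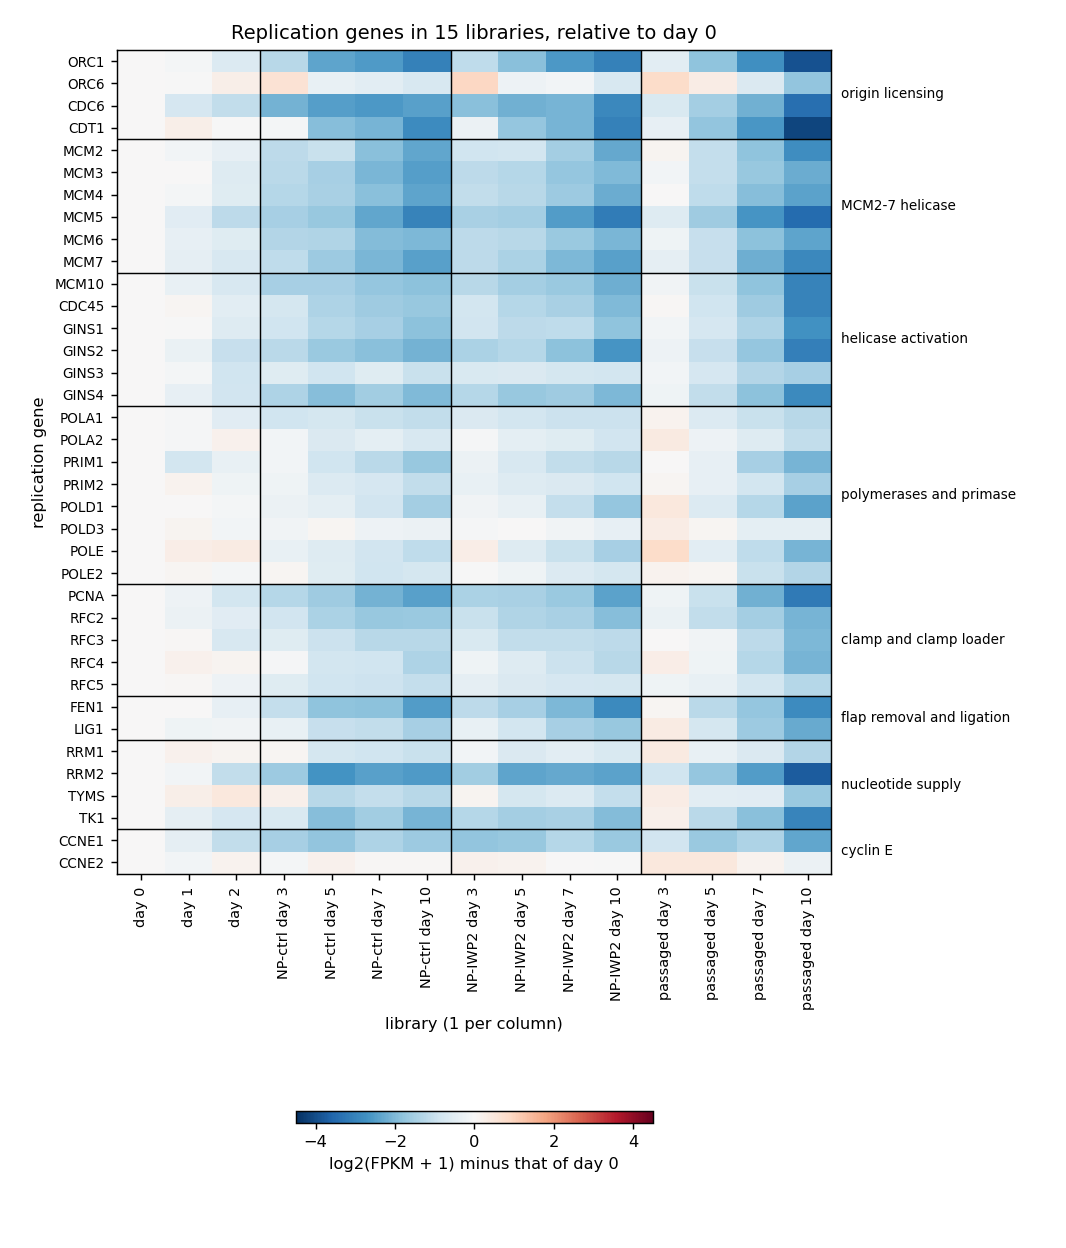
Level of each of the 37 replication genes in each of the 15 libraries, as log2(FPKM + 1) minus the value on day 0 (color scale, log2 units), with genes in rows by function and libraries in columns by arm and day. The column of passaged cells on day 3 is close to the day 0 color in most rows, and that of passaged cells on day 10 holds the lowest value of its row in 34 of 37 rows.

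Over the shared days the genes did not move as 1 block. On day 1, 14 of 37 were above and 23 below day 0, with a median difference of -0.08 on the log2(FPKM + 1) scale. By day 2, 30 of 37 were below day 0 with a median difference of -0.49, beside 0.01 over all genes tested. Of the 37 genes, 5 were at least 2-fold lower, beside 5.17% of all genes. The median level on day 2 was lowest in the helicase activation group, at 54.5% of day 0, and in the MCM2-7 group, at 67.2%, and highest in the polymerases and primase, at 91.9%. RRM2, the regulated subunit of ribonucleotide reductase, had an FPKM of 34, 30.8 and 15.1 on days 0, 1 and 2, whereas TYMS, which makes thymidylate, had 26.1, 31.7 and 36.2. The levels of RRM2 went down and those of TYMS went up over the same 3 libraries.

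On day 3 the passaged library stood above both libraries of cells left in place. FPKM was higher than in NP-ctrl for 36 of 37 genes, and for 33 of them the exact 95% interval of the ratio for counting error lay above 1. Such intervals were not counted over all genes, so this and the later interval counts cannot be called particular to these genes. The median difference was 0.75 on the log2(FPKM + 1) scale, beside 0.03 over all genes tested, and 11 of 37 genes were at least 2-fold higher on that scale, beside 5.02% of all genes. Against NP-IWP2, 35 of 37 were higher, with a median difference of 0.69 and 11 at least 2-fold higher, beside 3.65% of all genes. Against day 2, the library before the arms separated, 35 of 37 were higher in passaged cells, with a median of 0.45 and 1 (TK1) at least 2-fold higher, beside 6.78% of all genes. In NP-ctrl cells 30 of 37 genes were lower on day 3 than on day 2, with a median of -0.32 and 0 at least 2-fold lower, beside 4.35% of all genes. The mitochondrial share was lowest in the passaged library of day 3 and with those genes left out of the library total 36 of 37 genes were still higher than in NP-ctrl, with a median difference of 0.70. With DESeq2 size factors 35 were higher, POLE2 being the second gene that was lower. The 4 pluripotency markers summed on day 3 to an FPKM of 458 in passaged, 319 in NP-ctrl and 296 in NP-IWP2 cells (3, 3 and 4 of 4 at 1 or more). LIN28A carried the passaged sum, with 382, 194 and 174, while POU5F1 (48, 82.1 and 76), DPPA4 and NANOG were lower in passaged cells. On the same day the 4 primitive streak and early mesoderm markers summed to 10.4, 82.5 and 147 (4 of 4 in each, none at 0). Their part in the day 3 differences was not tested.

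The median day 3 ratio was highest in the MCM2-7 group, where all 6 genes were higher than in NP-ctrl, 4 of them at least 2-fold on the log2(FPKM + 1) scale, with a median ratio of 2.21. Median ratios were 1.98 for helicase activation, 1.96 for flap removal and ligation, 1.94 for cyclin E, 1.54 for the polymerases and primase, 1.51 for the clamp and clamp loader, 1.48 for nucleotide supply and 1.46 for origin licensing. The ratios of the groups overlapped, from 0.81 to 3.01 in licensing, 1.07 to 2.52 in the polymerases and primase and 1.69 to 2.57 in MCM2-7, and the difference between groups was not tested. On the log2(FPKM + 1) scale the genes at least 2-fold higher were CDC6, MCM2, MCM3, MCM4, MCM6, MCM10, GINS4, POLA1, POLE, PCNA and FEN1. By the ratio of FPKM alone GINS2 and CCNE2 were also past 2-fold, at 2.05-fold (95% interval 1.83 to 2.3) and 2.27-fold (95% interval 1.56 to 3.33). The largest ratio was that of CDC6, the loader of the helicase, at 3.01-fold (95% interval 2.71 to 3.35).

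On day 5 passaged cells were still above NP-ctrl for 35 of 37 genes, with a median difference of 0.47, and for 31 of them the counting interval lay above 1. On day 7 the order was mixed, with 15 genes above and 22 below and a median of -0.06. On day 10 passaged cells were below NP-ctrl for 36 of 37 genes (35 with DESeq2 size factors and 37 with TPM), for 34 of them with the whole counting interval of the ratio below 1. The mitochondrial share was 10.3% in that passaged library and 3.72% in that of NP-ctrl, and with those genes left out of the library total 35 genes were lower with a median difference of -0.44. The median difference was -0.51, beside -0.09 over all genes tested, and 5 of 37 genes were at least 2-fold lower, beside 11.7% of all genes. That count rested on the pseudocount of 1, since a pseudocount of 0.1 gave 11 of 37 beside 22.7% of all genes. TPM, another scaling, gave 18 beside 25.1%, with a median difference over all genes of -0.38. Against NP-IWP2 36 of 37 were lower, with a median of -0.61 and 5 at least 2-fold lower, beside 7.01% of all genes. In all, 35 of 37 genes were above NP-ctrl on day 3 and below it on day 10. The exceptions were CDT1, lower on both days, and MCM3, higher on both, although with TPM in place of FPKM MCM3 was also lower on day 10.

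On day 10 the arms also differed in other cell types, and the part of this in the day 10 differences was not tested. The 7 hepatocyte and yolk sac endoderm markers summed to 22.4 FPKM in passaged, 4298 in NP-ctrl and 1266 in NP-IWP2 cells, with 3, 7 and 7 of 7 at 1 or more, and APOA2 at 0 counts in passaged cells. The 7 fibroblast and stroma markers summed to 119, 4530.0 and 1237, with 6, 7 and 7 of 7 at that level and none at 0. The 5 epicardium markers summed to 0.36, 69.2 and 76.5, with 0, 4 and 4 of 5 at that level and TCF21 at 0 in passaged cells. The 5 endothelium markers summed to 124.9, 126.9 and 127.4, with 2, 4 and 5 of 5 at that level and none at 0, KDR making up 119, 93 and 100.4 of them, and the other 4 markers were lower in passaged cells than in both other arms.

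**Figure D2:**
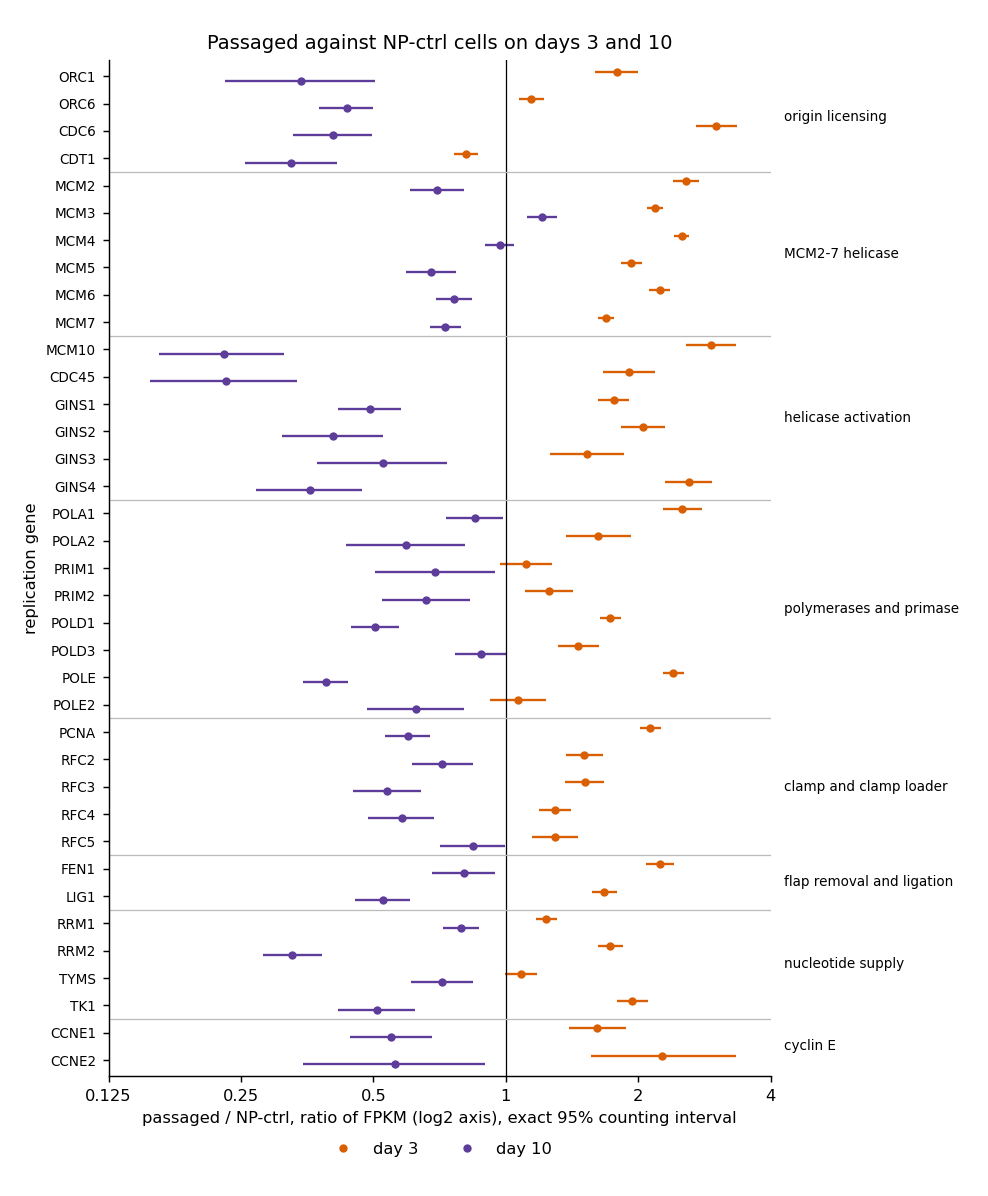
Ratio of FPKM in passaged to NP-ctrl cells for each of the 37 replication genes on day 3 (orange) and day 10 (purple), on a log2 axis, with the exact 95% interval from the counts as a bar (1 library per arm and day). On day 3, 36 of 37 ratios lie above 1, and on day 10, 36 of 37 lie below 1.

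The largest day 10 differences were in licensing and helicase activation, not in the helicase ring that was highest on day 3. Passaged levels were lower than in NP-ctrl by a median of 2.68-fold in origin licensing and 2.62-fold in helicase activation, with 2 of 4 and 2 of 6 genes at least 2-fold lower on the log2(FPKM + 1) scale. For the other groups the medians were 1.8-fold for cyclin E, 1.67-fold for the clamp and clamp loader, 1.63-fold for nucleotide supply (with RRM2 at least 2-fold lower), 1.56-fold for the polymerases and primase, 1.51-fold for flap removal and ligation, and 1.34-fold for MCM2-7. The 5 genes past that limit were ORC6, CDT1, MCM10, CDC45 and RRM2. The difference between groups was not tested.

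Within the passaged arm, FPKM on day 10 was below that on day 3 for all 37 genes, and 35 of 37 were at least 2-fold lower, beside 15.4% of all genes. In NP-ctrl 17 of 37 were at least 2-fold lower on day 10 than on day 3, beside 9.54% of all genes, and in NP-IWP2 17 of 37, beside 13.5%. The median differences were -2.48, -0.92 and -0.95 on the log2(FPKM + 1) scale in passaged, NP-ctrl and NP-IWP2 cells. FPKM went down at each of the steps from day 3 to 5, 5 to 7 and 7 to 10 in 34 genes in passaged cells, 21 in NP-ctrl and 22 in NP-IWP2. In passaged cells the median step was -0.81, -0.68 and -0.83, so the decline was spread over all 3 steps.

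**Figure D3:**
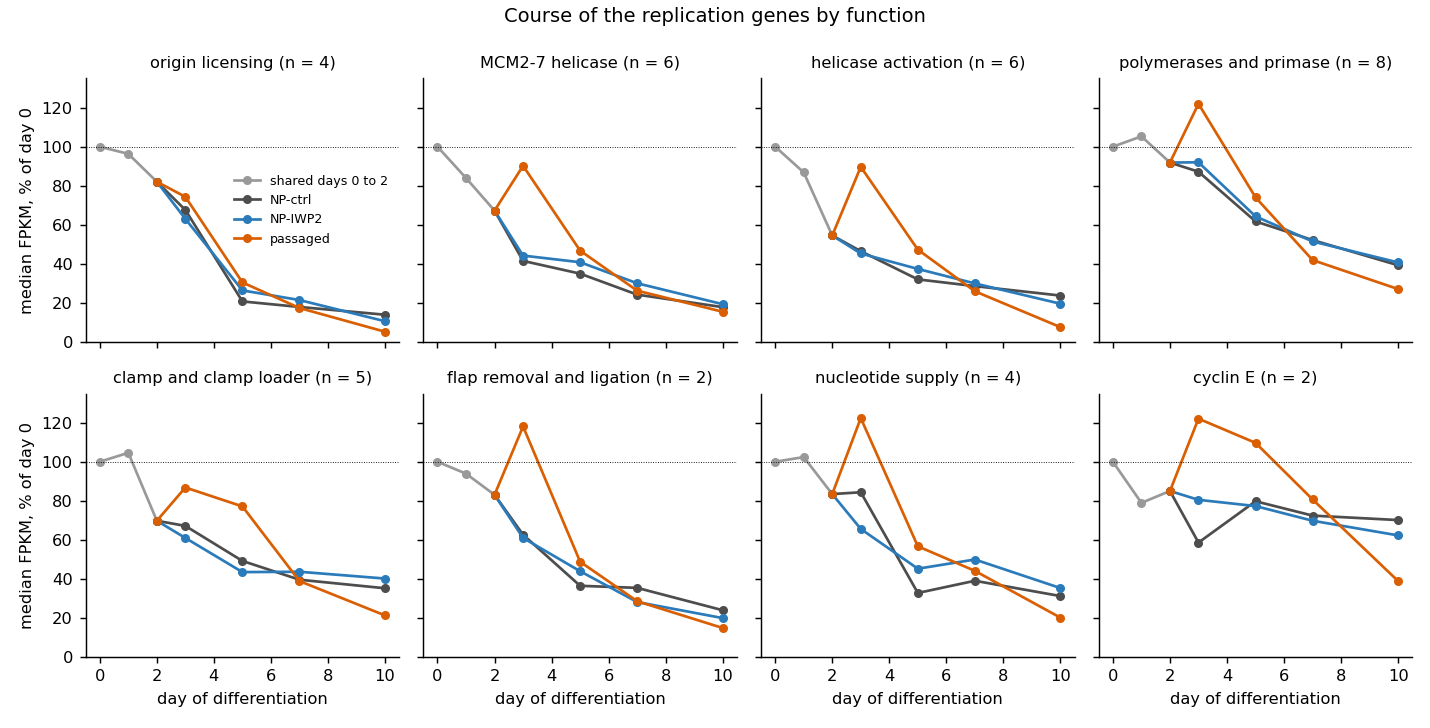
Median FPKM of each function group as a percentage of its day 0 level (linear axis from 0) against the day of differentiation, for the shared days (gray) and for NP-ctrl (black), NP-IWP2 (blue) and passaged cells (orange), 1 library per point. In every group the orange line is the highest of the 3 arms on day 3 and the lowest on day 10.

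A line fitted to days 3 to 10 in each arm with edgeR gives a test of the decline. In passaged cells the slope was below 0 for all 37 genes with a median of -0.36 log2 units per day, and 33 genes fell at an adjusted p under 0.05, beside 8.3% of all genes tested that fell. In NP-ctrl 13 genes fell (3.6% of all genes) with a median slope of -0.15, and in NP-IWP2 12 fell (6.35% of all) with a median of -0.14. Those that did not pass in passaged cells were POLD3, TYMS, CCNE1 and CCNE2. Without the day 10 libraries, 7 of the 33 calls were made, for ORC1, MCM4, MCM5, MCM10, POLE, PCNA and LIG1, beside 0.948% of all genes, while all 37 slopes were still below 0 with a median of -0.38. Without day 3, 5 or 7, the number called was 25, 32 or 26, beside 4.42%, 7.05% or 2.44% of all genes.

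**Figure D4:**
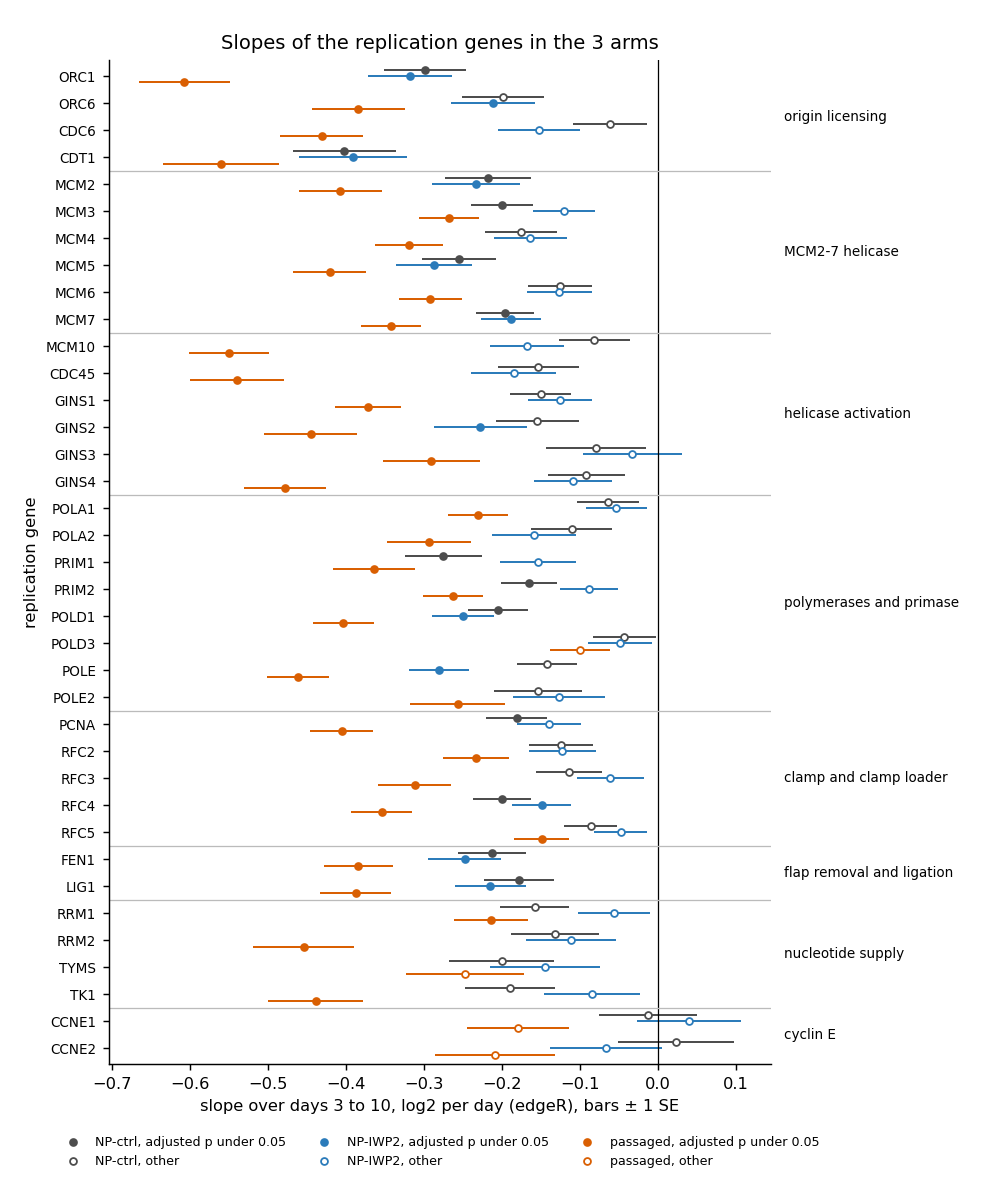
Slope of each of the 37 replication genes over days 3 to 10 in log2 units per day (edgeR, bars ± 1 SE, 4 libraries per arm), with filled points for an adjusted p under 0.05. The passaged slopes (orange) are the most negative of the 3 arms for all 37 genes, and 33 of them are filled, beside 13 for NP-ctrl and 12 for NP-IWP2.

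Whether the passaged slope was steeper than the others was tested as the difference of slopes. The passaged slope was below the NP-ctrl slope for all 37 genes, by a median of 0.18 log2 units per day, and the difference passed for 1 gene, MCM10, beside 0.141% of all genes tested that passed in that direction. At an unadjusted p under 0.05 there were 25 genes, beside 3307 of the 21206 genes tested, in either direction. DESeq2 called 11 genes, beside 4.13% of the 15818 genes to which it gave an adjusted p. With day as a factor shared by the arms edgeR called 12, beside 3.64% of all genes. Against NP-IWP2, edgeR called 0 genes, beside 0.00472% of all genes. At an unadjusted p under 0.05 edgeR had 26, beside 1609 of the 21206 genes tested. For the same difference limma called 0 and DESeq2 called 7, beside 1.06% of the 15818 genes to which DESeq2 gave an adjusted p. All these comparisons share the passaged libraries.

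The mean level over days 3 to 10 was also compared between the arms. In passaged cells 35 of 37 genes were above NP-ctrl on day 3 and below it on day 10. Such opposite differences cancel in a mean, so 0 calls here do not show equal levels. For passaged minus NP-ctrl edgeR called 0 of 37 genes, beside 4.4% of all genes. At an unadjusted p under 0.05 there were 2, beside 4062 of the 21206 genes tested. They were MCM3 (log2 difference 0.62 ± 0.19 SE, adjusted p = 0.088) and CDT1 (-0.49 ± 0.22 SE, adjusted p = 0.252). DESeq2 called 1, MCM3, and limma called 0. For passaged minus NP-IWP2 edgeR called 0, beside 1.33% of all genes, and DESeq2 and limma called 0. By edgeR 1 was at an unadjusted p under 0.05, beside 2726 of the 21206 genes tested. For NP-IWP2 minus NP-ctrl all 3 tools called 0, beside 0.0189% of all genes by edgeR. By edgeR 0 were at an unadjusted p under 0.05, beside 1009 of the 21206 genes tested.

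Origin licensing had the steepest median decline of the 8 groups in passaged cells. CDT1, which loads the helicase together with CDC6, had an FPKM of 56.6, 67.9 and 56.3 on days 0, 1 and 2, and on days 3, 5, 7 and 10 it had 43.6, 15.9, 8.43 and 2.29 with passaging, against 53.8, 14.4, 12.4 and 7.02 in NP-ctrl and 47.1, 16.1, 12.5 and 6.06 in NP-IWP2. It was the 1 gene below NP-ctrl on day 3 after passaging, by 1.23-fold (95% interval 1.16 to 1.31), and on day 10 it was lower by 3.07-fold (95% interval 2.42 to 3.92). Its slope passed in every arm, at -0.56 ± 0.07 (SE) with passaging, -0.40 ± 0.07 (SE) in NP-ctrl and -0.39 ± 0.07 (SE) in NP-IWP2, with edgeR adjusted p of 0.00253, 0.0173 and 0.0126. ORC6, the small subunit of the origin recognition complex, had 17.8, 17.8 and 21.8 on the shared days, then 32.6, 22.6, 11.1 and 4.53 with passaging, against 28.5, 13.8, 12.7 and 10.4 in NP-ctrl and 34.8, 15.1, 16.2 and 10.6 under IWP2. Unlike most of the genes it was higher on day 3 than on day 0 in all 3 arms, and its passaged value on day 3 lay between those of NP-IWP2 and NP-ctrl. From day 3 to day 10 it was lower in passaged cells by 7.21-fold (95% interval 6.37 to 8.17). ORC1 had the steepest passaged slope of all 37 genes, -0.61 ± 0.06 (SE) with an adjusted p of 0.00102, from an FPKM of 18.7 on day 3 to 0.80 on day 10. CDC6 fell in passaged cells with an adjusted p of 0.00201 from 17 to 1.71, while in NP-ctrl it was 5.64, 4.15, 3.81 and 4.22 and its slope did not pass (adjusted p = 0.46).

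The MCM2-7 ring was the group with the largest median ratio on day 3 and that closest to NP-ctrl on day 10. MCM2 had an FPKM of 40.1, 36.5 and 31.2 on days 0, 1 and 2, then 44.1, 18.7, 10.8 and 4.96 with passaging, against 17.2, 19.3, 10.1 and 7.12 in NP-ctrl and 21.3, 22, 13.1 and 7.26 under IWP2. The passaged value on day 3 was the highest of the 15, 2.57-fold (95% interval 2.4 to 2.74) that of NP-ctrl, and by day 5 the passaged value lay just below that of NP-ctrl. From day 3 to day 10 MCM2 was lower in passaged cells by 8.88-fold (95% interval 7.95 to 9.94), close to the 8.95-fold (95% interval 8.08 to 9.94) of MCM5, with a slope of -0.41 ± 0.05 (SE) and an adjusted p of 0.00246. MCM3, the subunit with the smallest such difference, had 128, 129 and 85 on the shared days, then 118, 59.9, 38.4 and 26.6 with passaging, against 54.2, 44.3, 29.8 and 22 in NP-ctrl and 56.6, 51.6, 37.3 and 31.4 under IWP2. It was 2.18-fold (95% interval 2.09 to 2.28) higher than in NP-ctrl on day 3 and, alone among the 37 genes, still higher on day 10, by 1.21-fold (95% interval 1.12 to 1.31), although below NP-IWP2. With TPM in place of FPKM MCM3 was below NP-ctrl on day 10, and with DESeq2 size factors MCM4 was above it too. MCM4 had 13.1 in passaged and 13.5 in NP-ctrl cells on day 10, a ratio whose 95% interval, 0.897 to 1.05, includes 1. All 6 slopes passed in passaged cells, with MCM5 the steepest at -0.42 ± 0.05 (SE), and MCM7, whose upstream sequence is shown above, at -0.34 ± 0.04 (SE). In NP-ctrl 4 of 6 passed and in NP-IWP2 3 of 6.

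The largest day 10 ratios between passaged and NP-ctrl cells were those of the helicase activation genes MCM10 and CDC45. CDC45, which rides with the ring as part of the active helicase, had an FPKM of 13.4, 14.1 and 9.35 on days 0, 1 and 2, then 13.8, 6.8, 3.74 and 0.79 with passaging, against 7.25, 4.48, 3.75 and 3.44 in NP-ctrl and 7.14, 4.84, 4.26 and 2.65 under IWP2. On day 10 it was lower than in NP-ctrl by 4.33-fold (95% interval 2.98 to 6.44), and lower than on day 3 by 17.4-fold (95% interval 12.4 to 25.1). GINS3, which had the smallest decline of the group, had 3.83, 3.57 and 1.61 on the shared days, then 3.48, 1.86, 0.95 and 0.73 with passaging, against 2.28, 1.6, 2.35 and 1.4 in NP-ctrl and 2.03, 2.08, 1.78 and 1.71 under IWP2. Levels of GINS3 in the arms left in place showed no steady order over days, and its passaged value of day 7 was already below both. MCM10, singled out after its test result was seen, had 11.8, 9.04 and 6.8 on the shared days, then 10.4, 5.35, 2.65 and 0.59 with passaging, against 3.56, 3.58, 2.82 and 2.59 in NP-ctrl and 4.43, 3.42, 3.05 and 1.81 under IWP2. It was 2.92-fold (95% interval 2.56 to 3.34) of NP-ctrl on day 3 and lower by 4.38-fold (95% interval 3.19 to 6.13) on day 10, and its slope was -0.55 ± 0.05 (SE) in passaged cells against -0.08 ± 0.05 (SE) in NP-ctrl, a difference of -0.47 ± 0.07 (SE) with an adjusted p of 0.0432. Leaving out the libraries of day 3, 5, 7 or 10 kept that difference between -0.35 and -0.51, and it did not pass without any 1 of these days. In passaged cells all 6 genes of the group fell, against 0 in NP-ctrl and 1, GINS2, in NP-IWP2. At an unadjusted p under 0.05 there were 3 in NP-ctrl, beside 5272 of the 21206 genes tested, in either direction.

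The polymerases and primase were the group closest to day 0 in the arms left in place on day 3. POLE, the catalytic subunit of the leading strand polymerase epsilon, had an FPKM of 9.98, 12.6 and 13.1 on days 0, 1 and 2, then 18.4, 6.9, 4.01 and 1.56 with passaging, against 7.63, 6.4, 5.1 and 4.0 in NP-ctrl and 12.4, 6.29, 4.44 and 2.9 under IWP2. Its passaged value on day 3 was above every other library, 2.4-fold (95% interval 2.28 to 2.54) that of NP-ctrl, and the value on day 10 was the lowest, below NP-ctrl by 2.57-fold (95% interval 2.28 to 2.9). The passaged slope of POLE had the lowest edgeR adjusted p of all, -0.46 ± 0.04 (SE) with an edgeR adjusted p of 0.000787, and its difference from the NP-ctrl slope, -0.32 ± 0.05 (SE), just missed the threshold (adjusted p = 0.0534). POLD3, an accessory subunit of polymerase delta, had 7.66, 8.49 and 6.9 on the shared days, then 9.91, 8.25, 5.37 and 5.4 with passaging, against 6.78, 8.16, 6.34 and 6.16 in NP-ctrl and 7.27, 7.84, 6.7 and 5.7 under IWP2. It was lower in passaged cells on day 10 than on day 3 by 1.84-fold (95% interval 1.63 to 2.07), and its passaged slope of -0.10 ± 0.04 (SE) did not pass (adjusted p = 0.116). POLD1, the catalytic subunit of the same polymerase, fell in passaged cells from 45.8 to 5.25 (adjusted p = 0.00102). POLE2 and PRIM1 were the polymerase genes with the smallest day 3 difference, 1.07-fold (95% interval 0.92 to 1.24) and 1.11-fold (95% interval 0.969 to 1.27) of NP-ctrl, with intervals that include 1. Of the 8 genes, 7 fell in passaged cells, 3 in NP-ctrl and 2 in NP-IWP2.

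PCNA was the most abundant of the 37 genes by FPKM on day 0. PCNA had an FPKM of 218, 185 and 122 on days 0, 1 and 2, then 189, 108, 48.5 and 23.3 with passaging, against 88.6, 70.5, 49.3 and 39 in NP-ctrl and 80.9, 79.4, 67.5 and 39.8 under IWP2. On day 3 the passaged level was 2.13-fold (95% interval 2.02 to 2.25) that of NP-ctrl and on day 10 it was lower by 1.67-fold (95% interval 1.49 to 1.88). It fell in passaged cells at -0.41 ± 0.04 (SE) (adjusted p = 0.00112) and in NP-ctrl at -0.18 ± 0.04 (SE) (adjusted p = 0.0328). RFC5, a subunit of the clamp loader, had 14.5, 15.3 and 12.2 on the shared days, then 12.6, 11.2, 7.72 and 5.4 with passaging, against 9.77, 7.41, 7.18 and 6.42 in NP-ctrl and 10.7, 9.01, 8.24 and 7.97 under IWP2. It was the subunit with the smallest decline, 2.34-fold (95% interval 2.02 to 2.71) from day 3 to day 10 in passaged cells, and that slope passed at -0.15 ± 0.04 (SE) (adjusted p = 0.0216). All 5 genes fell in passaged cells, 2 in NP-ctrl (PCNA and RFC4) and 1 in NP-IWP2 (RFC4).

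Both genes of flap removal and ligation fell in all 3 arms. FEN1, the nuclease that cuts the displaced flaps of lagging strand fragments, had an FPKM of 65.4, 65.5 and 50.7 on days 0, 1 and 2, then 69.2, 27.3, 18.7 and 8.43 with passaging, against 30.9, 17.9, 17.5 and 10.5 in NP-ctrl and 28.1, 22.4, 15.5 and 8.19 under IWP2. On day 3 passaged cells had 2.24-fold (95% interval 2.08 to 2.41) the level of NP-ctrl, and on day 10 they were lower than NP-ctrl by 1.25-fold (95% interval 1.06 to 1.47) and just above NP-IWP2. LIG1, the ligase of these fragments, had 18.4, 16.1 and 16.3 on the shared days, then 24, 10.3, 5.24 and 3.06 with passaging, against 14.3, 8.38, 8.08 and 5.83 in NP-ctrl and 14.6, 9.87, 5.98 and 5.0 under IWP2. Slopes in passaged, NP-ctrl and NP-IWP2 cells were -0.38 ± 0.04 (SE), -0.21 ± 0.04 (SE) and -0.25 ± 0.05 (SE) for FEN1 and -0.39 ± 0.05 (SE), -0.18 ± 0.04 (SE) and -0.21 ± 0.05 (SE) for LIG1, the highest adjusted p being 0.0496 for LIG1 in NP-ctrl.

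The nucleotide supply genes divided into those with large and small changes. TK1, which salvages thymidine, had an FPKM of 50.2, 37.3 and 29.2 on days 0, 1 and 2, then 59.6, 21, 13.1 and 5.59 with passaging, against 30.8, 12.6, 16.3 and 11 in NP-ctrl and 20.2, 16.9, 17.6 and 12.2 under IWP2. The passaged value on day 3 was the highest of the 15 libraries, 1.94-fold (95% interval 1.78 to 2.11) that of NP-ctrl, and that of day 10 the lowest. RRM1, the large subunit of ribonucleotide reductase, had 34.8, 39.8 and 37.8 on the shared days, then 46.2, 27.3, 21.6 and 13.2 with passaging, against 37.4, 19.6, 18.4 and 16.7 in NP-ctrl and 31.6, 21.9, 24.5 and 21.4 under IWP2. Its decline from day 3 to day 10 in passaged cells was 3.49-fold (95% interval 3.23 to 3.77), beside 10.7-fold (95% interval 9.04 to 12.7) for TK1 and 10.8-fold (95% interval 9.46 to 12.5) for RRM2, the partner subunit of RRM1. RRM2 in passaged cells had 17.6, 9.57, 5.17 and 1.62 on days 3, 5, 7 and 10, and on day 10 it was lower than in NP-ctrl by 3.06-fold (95% interval 2.62 to 3.58), against 1.26-fold (95% interval 1.15 to 1.39) for RRM1. RRM1, RRM2 and TK1 fell in passaged cells with adjusted p of 0.0166, 0.00344 and 0.00298, whereas TYMS had a slope of -0.25 ± 0.08 (SE) with an adjusted p of 0.0537. In NP-ctrl and NP-IWP2 0 of 4 passed by edgeR. At an unadjusted p under 0.05 there were 4 and 0, beside 5272 and 6046 of the 21206 genes tested, in either direction.

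The cyclin E genes had the smallest median decline of the 8 groups from day 3 to day 10 in passaged cells. CCNE1 had an FPKM of 23.7, 17.8 and 10.6 on days 0, 1 and 2, then 12.7, 6.81, 8.54 and 3.85 with passaging, against 7.85, 6.2, 8.4 and 7.0 in NP-ctrl and 6.23, 6.61, 9.05 and 6.75 under IWP2. CCNE2 was near the limit of the filter, with 0.75, 0.62 and 0.94 on the shared days, then 1.43, 1.43, 0.94 and 0.46 with passaging, against 0.63, 1.0, 0.82 and 0.83 in NP-ctrl and 1.01, 0.95, 0.76 and 0.72 under IWP2. Passaged cells on day 3 were above NP-ctrl by 1.61-fold (95% interval 1.39 to 1.88) for CCNE1 and 2.27-fold (95% interval 1.56 to 3.33) for CCNE2, and on day 10 below it by 1.82-fold (95% interval 1.47 to 2.26) and 1.79-fold (95% interval 1.12 to 2.9). The slopes in passaged cells, -0.18 ± 0.07 (SE) and -0.21 ± 0.08 (SE), did not pass (adjusted p = 0.0941 and 0.0983). CCNE1 had no match to the motifs in the window shown above, but neither had TK1, whose passaged slope of -0.44 passed. A relation of motifs to slopes was not tested.

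The genes outside the 37 with related roles followed only in part. Of 32 other replication genes, 25 were above NP-ctrl in passaged cells on day 3, with a median difference of 0.48. At least 2-fold higher were 4 of the 32, beside 5.02% of all genes. On day 10, 24 were below NP-ctrl with a median of -0.34. Those with the largest day 3 differences were CLSPN, a checkpoint adaptor (1.89 in NP-ctrl and 6.72 in passaged cells), CHAF1A, a histone chaperone of the fork (17.2 and 40.3), and RECQL4, a helicase (17.9 and 39.4). On day 10 the largest were CDC7, the kinase that fires origins (7.35 in NP-ctrl and 2.01 in passaged cells), RECQL4 (6.38 and 1.72) and TICRR (3.27 and 0.88). In passaged cells 17 of the 32 fell over days 3 to 10 by edgeR, beside 8.3% of all genes.

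Of 24 regulators of the passage from G1 to S phase, 18 were above NP-ctrl in passaged cells on day 3, with a median difference of 0.35. The largest differences were in CDC25A, a phosphatase that activates CDK2 (7.6 in NP-ctrl and 21.6 in passaged cells), and in the transcription factors E2F2 (0.63 and 3.01) and E2F1 (8.74 and 21.6). On day 10 the largest were in CDKN1C, a CDK inhibitor (189 in NP-ctrl and 35.4 in passaged cells), and in the D-type cyclins CCND2 (32.1 and 7.06) and CCND3 (7.41 and 1.93), all lower in passaged cells. By edgeR 7 of the 24 fell in passaged cells (E2F1, E2F2, E2F7, RBL1, CDK2, CDK4 and CDC25A), beside 8.3% of all genes. CDKN2C, with an FPKM of at most 0.29, was below the filter and was not tested. The CDK inhibitor CDKN1B was the 1 that rose, by 0.18 log2 units per day, beside 1606 of the 21206 genes tested.

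Mitosis genes had another order on day 3. Of 20 such genes, 14 were below NP-ctrl in passaged cells on day 3 with a median difference of -0.24, where 36 of the 37 replication genes were above. The largest differences were those of the cyclin CCNB2 (62.7 in NP-ctrl and 33.6 in passaged cells), the mitotic kinase AURKA (39.6 and 22.6) and, in the other direction, the kinetochore protein CENPF (26.8 and 46.8). On day 5 all 20 were above NP-ctrl, with a median of 0.66, and on day 10 19 were below with a median of -1.42 and 17 at least 2-fold lower, beside the 11.7% of all genes given above. The largest on day 10 were MKI67 (9.63 in NP-ctrl and 1.81 in passaged cells), AURKB (7.36 and 1.44) and TOP2A (38.3 and 10.7). Mitosis genes in NP-ctrl stood at a median of 102% of day 0 on day 3 and 36.2% on day 5, where the replication genes stood at 54.3% and 39.2%. By edgeR 16 of 20 mitosis genes fell in passaged cells over days 3 to 10, 2 in NP-ctrl and 3 in NP-IWP2. The shares of all genes that fell were 8.3%, 3.6% and 6.35%. The difference between the lists was not tested.

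**Figure D5:**
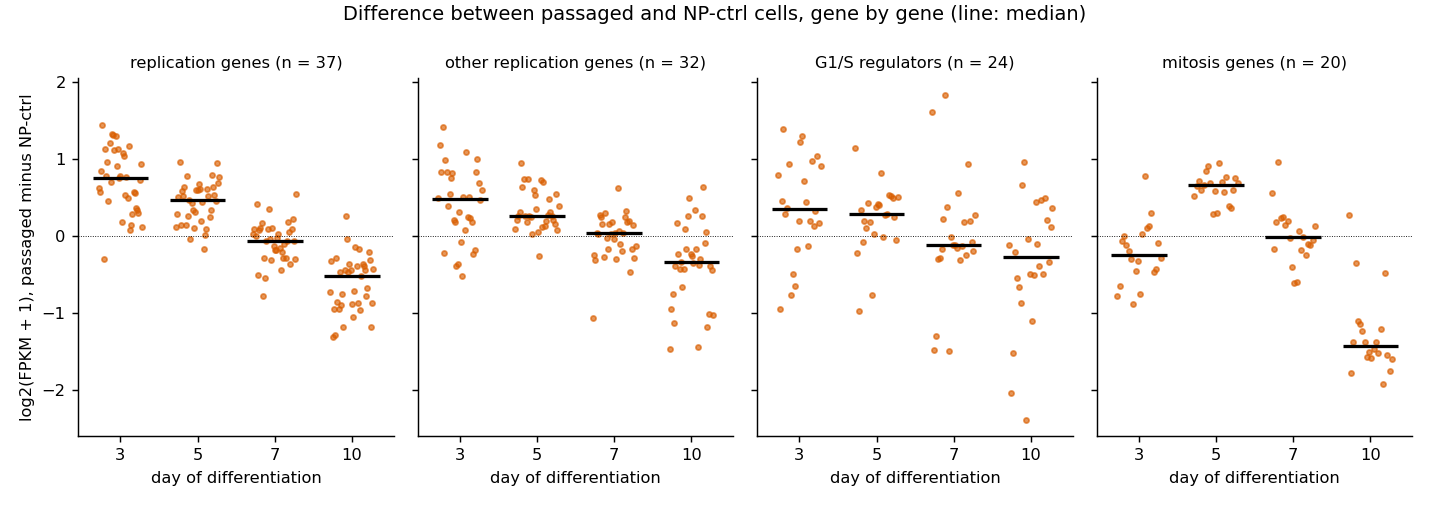
Difference in log2(FPKM + 1) between passaged and NP-ctrl cells on days 3, 5, 7 and 10, with 1 point per gene and a bar at the median, for the 37 replication genes and 3 related lists. The replication genes have medians of 0.75, 0.47, -0.06 and -0.51, and the mitosis genes -0.24, 0.66, -0.02 and -1.42.

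Most of the 37 genes followed a similar course over the 15 libraries. The Pearson correlation of a gene's log2(FPKM + 1) with the mean of the other 36 was at least 0.9 for 30 genes, with a median of 0.96 (a description over 15 libraries that share days, cells and depth). Correlations past 0.9 were not counted over all genes, so this count cannot be called particular to these genes. Those farthest from the rest were CCNE2, at 0.38, then CCNE1 and POLD3, both at 0.79, ORC6 at 0.80, GINS3 at 0.84, PRIM1 at 0.88 and TYMS at 0.89. Among 13979 genes with a mean log2(FPKM + 1) of at least 1 and outside all lists, the 8 most like the mean of the 37 were NASP, CHEK1, CDCA5, PKMYT1, RAD54L, THOP1, EXOSC2 and SMARCC1, with correlations of 0.98 to 0.99. NASP had an FPKM of 103, 84.9 and 74.0 on days 0, 1 and 2, and on days 3 and 10 it had 60.6 and 27.2 in NP-ctrl, against 106 and 16.6 with passaging and 67.1 and 24.9 under IWP2.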

How the data were processed

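The authors counted reads per gene, and the deposited table holds raw counts and FPKM of 60605 genes in 15 libraries. FPKM recomputed from the deposited counts and gene lengths differed by at most 0.005. The submitters' processing notes name Cutadapt 1.9.1, HISAT2 2.0.1, HTSeq 0.6.1, DESeq2 and the build hg38. The protocols name a long-read library kit, so the read type was uncertain.

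A gene was tested if any library had 1 or more FPKM (21206 genes). Counts of the 12 libraries of days 3 to 10 were fitted with edgeR 4.0.16 (TMM, quasi-likelihood test, R 4.3.3), once with arm and day as factors and once with a level and a slope per day for each arm. P-values were adjusted by Benjamini-Hochberg over all genes tested and called under 0.05. DESeq2 1.42.0, limma 3.58.1 on log2(FPKM + 1), other scalings, no filter and leaving out each day were alternatives. Pairs of single libraries were compared on log2(FPKM + 1), called at a 2-fold difference, with exact 95% intervals of the ratio (Clopper-Pearson on the 2 counts). These cover counting error only, with a median distance from the ratio to its bound of 0.12 on the log2 scale on day 3 and 0.24 on day 10.

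The genes, gene lists and tests were chosen with earlier results of these data known. Named in full in each group were the genes with the largest and smallest decline from day 3 to day 10 in passaged cells, and any gene whose day 3 difference went against the median. From the other lists the 3 genes with the largest absolute difference between passaged and NP-ctrl cells on day 3 and on day 10 were named. The 8 genes outside the lists with the highest correlation to the mean of the 37 were also named. Genes added after their values were seen were MCM10, ORC1, CDC6, MCM4, MCM5, MCM7, POLD1, POLE2, PRIM1, RRM2 and TYMS. Of the 37 genes, 33 had the same coordinates in GENCODE 44, and the 4 printed windows were identical to hg38.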

Additional observations from a re-analysis of the deposited data

Results flagged for a closer look

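MCM10 drew attention because its decline differed between arms by a test of the difference itself. Its slope over days 3 to 10 in passaged cells minus that in NP-ctrl was -0.47 log2 units per day (edgeR, adjusted p = 0.0432, 1 of 37 genes past the threshold). The slope was lower in passaged cells for all 37 genes. The cause was not tested.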

How the results depend on the processing

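All 37 slopes in passaged cells stayed below 0 under every alternative run, and 32 of 37 slope differences from NP-ctrl did. The number of genes that fell in passaged cells was 7 to 32 with 1 day left out (7 without day 10, against 33). For the slope difference from NP-ctrl, 1 gene was called in the main analysis, 2 with no filter (0.367% of 41457 genes), 11 with DESeq2 and 12 with day as a factor. With 1 day left out 0 to 1 were called (0 without day 5, 7 or 10, and RRM2 in place of MCM10 without day 3). With the log2 of the day, an alternative chosen after seeing the data, the 1 gene was POLE. Against NP-IWP2, DESeq2 called 7 and day as a factor 3 (0.844% of all genes), where the main analysis called 0. For the mean difference from NP-ctrl, no filter and DESeq2 each called 1 gene, MCM3 (beside 6.2% of 41457 genes and 12% of the 17868 genes with a DESeq2 adjusted p). TPM shifted the median of all genes for passaged minus NP-ctrl cells to 0.28 on day 3 and -0.38 on day 10, and with it the medians of the 37 genes were 1.06 and -0.98, with 22 genes at least 2-fold higher on day 3 (15.9% of all genes) and 18 at least 2-fold lower on day 10 (25.1%). A limit of 1.5-fold gave 22 genes (14.5% of all) and 18 (22.6%), and a pseudocount of 0.1 gave 11 genes on day 10 (22.7%). The cause of these changes was not tested, except that fewer days leave fewer libraries. For single genes, with the log2 of the day left out, 281 of 333 values of the passaged slope kept their direction and side of the threshold, 44 lost and 8 gained a call, and 0 reversed. For the slope difference these were 343 of 370, 4, 23 and 0. No paired analysis was possible because each arm and day held 1 library, so that replicate numbers pair nothing. The arms share days, and day as a factor is the fit matched by day. With 1 library per arm and day, depth limits the intervals of low genes, such as CCNE2 and CDC45, most.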
